A study of Homo sapiens with 8 samples.

Results

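The regions described here are stretches of acetylated chromatin that appeared as 1 unbroken peak in control cells and as several separate peaks in ARID1A knockout cells. Peaks of the knockout and control lists on chromosomes 1 to 22 and X were merged wherever they overlapped by at least 1 bp. Members are the merged regions up to 10 kb wide that hold exactly 1 control peak and 2 or more knockout peaks. There were 589 of them among 48662 merged regions. Members were thus chosen by the peak positions measured in both lists, so the number of peaks, their widths, the gaps and the covered length are given as a description and were not tested.

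The study profiled acetylation of lysine 27 of histone H3 (H3K27ac) by ChIP-seq, which sequences the DNA bound to immunoprecipitated chromatin. The cells were MDA-MB-231, a triple-negative breast cancer line. The groups were ARID1A knockout cells (KO IP and KO Input) and control cells (NC IP and NC Input), with 2 libraries each, and all libraries came from this 1 cell line. Each genotype had a single peak list, called on the immunoprecipitate over its own input, so there is 1 value per genotype, no spread between replicates and no test of the genotype. The labels do not say whether the knockout was 1 clone or a pool, nor what the control cells carried. The antibody is H3K27ac in the sample characteristics but H3K4me3 in the protocol for extraction. Whether replicates were pooled for a list was not given in the sources used here.

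H3K27ac marks active promoters and enhancers. At an active gene it typically flanks the transcription start and often runs on into the first part of the transcribed body, so that one broad peak can cover the start and enhancers next to it. ARID1A binds DNA as part of SWI/SNF (also BAF), a remodelling complex that moves nucleosomes and is known to work at enhancers. A peak caller reports 1 peak or several depending on whether the signal between stays above its threshold and on how far apart 2 enriched stretches may lie before it stops linking them.

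Gene starts almost never lay in the knockout gaps, and the promoters below show both situations. The promoter of a gene is printed as the 300 bases from 250 before to 50 after its start, 5′ to 3′, from RefSeq on GRCh38.p14. Capitals mark matches on either strand to the GC box (GGGCGG), the CCAAT box (CCAAT), the TATA box (TATAAA) and the AP-1 site (TGANTCA). GC boxes can overlap each other, as they do at SPATA4 and TRIM47. The first 3 promoters are those whose start lay inside a gap between knockout peaks: CSK (chr15:74788294-74788593, plus strand), C10orf95 (chr10:102451494-102451793, minus strand) and SPATA4 (chr4:176195536-176195835, minus strand). They were chosen after their values were seen. The CSK start of the promoter table (74788544) lies inside the gene as given in the gene table, which begins at 74782080. The CSK window is thus not at the outer start of the gene.
CSK: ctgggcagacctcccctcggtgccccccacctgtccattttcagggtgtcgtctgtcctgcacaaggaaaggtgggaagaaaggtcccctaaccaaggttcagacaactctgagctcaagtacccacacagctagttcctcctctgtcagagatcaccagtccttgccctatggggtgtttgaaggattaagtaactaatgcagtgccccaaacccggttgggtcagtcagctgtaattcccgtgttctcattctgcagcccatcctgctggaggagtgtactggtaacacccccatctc
C10orf95: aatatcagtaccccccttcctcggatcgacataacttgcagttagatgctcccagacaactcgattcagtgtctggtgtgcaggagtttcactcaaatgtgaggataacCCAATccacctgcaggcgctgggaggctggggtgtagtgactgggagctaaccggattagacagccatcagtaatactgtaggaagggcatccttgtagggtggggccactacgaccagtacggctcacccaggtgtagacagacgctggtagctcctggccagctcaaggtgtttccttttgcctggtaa
SPATA4: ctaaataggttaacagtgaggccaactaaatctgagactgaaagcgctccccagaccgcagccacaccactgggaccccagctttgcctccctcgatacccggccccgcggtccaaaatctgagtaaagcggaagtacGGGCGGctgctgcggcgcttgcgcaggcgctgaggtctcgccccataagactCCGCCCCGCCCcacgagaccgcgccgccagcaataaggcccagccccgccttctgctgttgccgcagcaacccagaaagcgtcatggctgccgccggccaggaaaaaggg
The next 3 are promoters of genes whose start lay under a knockout peak while their 3′ end lay in the gap: TRIM47 (chr17:75878532-75878831, minus strand), MEPCE (chr7:100428540-100428839, plus strand) and PSENEN (chr19:35745401-35745700, plus strand).
TRIM47: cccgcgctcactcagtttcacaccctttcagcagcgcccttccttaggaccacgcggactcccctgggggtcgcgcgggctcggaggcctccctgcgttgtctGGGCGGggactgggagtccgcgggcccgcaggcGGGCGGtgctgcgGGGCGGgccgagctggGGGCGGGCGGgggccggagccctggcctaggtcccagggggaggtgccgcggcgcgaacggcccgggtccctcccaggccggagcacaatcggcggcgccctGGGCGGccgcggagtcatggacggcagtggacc
MEPCE: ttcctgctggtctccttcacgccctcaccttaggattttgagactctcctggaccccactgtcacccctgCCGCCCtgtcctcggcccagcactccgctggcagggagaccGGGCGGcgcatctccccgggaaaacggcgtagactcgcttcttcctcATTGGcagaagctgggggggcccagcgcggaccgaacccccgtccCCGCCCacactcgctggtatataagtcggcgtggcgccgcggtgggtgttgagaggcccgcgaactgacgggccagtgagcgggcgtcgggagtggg
PSENEN: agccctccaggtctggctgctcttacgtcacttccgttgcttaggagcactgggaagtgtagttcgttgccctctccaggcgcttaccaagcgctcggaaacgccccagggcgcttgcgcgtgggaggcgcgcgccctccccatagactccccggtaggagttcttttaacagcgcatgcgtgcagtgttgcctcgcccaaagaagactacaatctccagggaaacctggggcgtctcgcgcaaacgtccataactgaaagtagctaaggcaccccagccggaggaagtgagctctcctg

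The printed promoters differed in base composition. The CSK window, which lies inside the gene, and the C10orf95 promoter had a GC content of 54.3% and 53.3%, with 4 and 8 CpG dinucleotides and no GC box. SPATA4 had 63.7%, 25 CpG and 3 GC boxes. TRIM47 had 77.0%, 36 CpG and 6 GC boxes, and MEPCE had 67.7%, 28 CpG and 3 GC boxes. PSENEN had 60.0% and 22 CpG but no match to any of the 4 motifs. Over the 281 gene starts in split regions, the median promoter had 66.3% GC and 28 CpG. For the 2018 starts in regions over 4 kb with 1 peak in each list the medians were 66.7% and 28, and for all 15812 protein-coding promoters in the table they were 62.7% and 22. A GC box was found in 76.2% of the promoters in split regions, 75.4% of those in the wide regions with 1 peak in each list and 58.5% of all promoters. The CCAAT box was found in 39.9%, 37.2% and 36.3% of these sets, the TATA box in 5.69%, 6.14% and 9.64%, and the AP-1 site in 2.85%, 4.76% and 5.75%. The promoters in split regions were thus closer to those in wide undivided regions than to all promoters in GC content and GC boxes. The 77 promoters in joined regions also had more of both than all promoters, with medians of 66.0% GC and 27 CpG and a GC box in 70.1%. They had a CCAAT box in 42.9%, a TATA box in 10.4% (8 promoters) and an AP-1 site in 9.09% (7 promoters). These shares describe letters in a window, not sites in use.

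Split control peaks were a small part of the acetylated regions and grew in share with the width of the region. They made up 589 of the 31187 regions up to 10 kb that both genotypes shared (1.89%, 95% interval 1.74 to 2.05), against 30598 other shared regions. The number depended on the threshold for peaks, with 288 split regions (1.26%) at a −log10 q of at least 5 and 219 (1.06%) at a fold of at least 4. Of those others, 30154 had 1 peak in each list, 439 showed the opposite pattern of 1 knockout peak and 2 or more control peaks (1.41%, 1.28 to 1.54), and 5 had several peaks in both. The opposite pattern is called joined here. No split region was among the 14717 shared regions up to 2 kb wide. A member needs 2 knockout peaks (the narrowest in the list was 225 bp) and a gap (at least 904 bp in that list). The rule thus keeps narrow regions out and favours wide ones, and the 1.89% counts regions that could hardly qualify. From 2 to 4 kb 1.02% of shared regions were split (113 of 11098), from 4 to 6 kb 6.02% (208 of 3458), from 6 to 8 kb 12.4% (163 of 1313) and from 8 to 10 kb 17.5% (105 of 601). Joined regions followed the same course, with 0.613%, 4.71%, 10.1% and 12.3%. Intervals are exact binomial (Clopper-Pearson) and cover counting error only, since regions of 1 library set are not replicates.

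**Figure D1:**
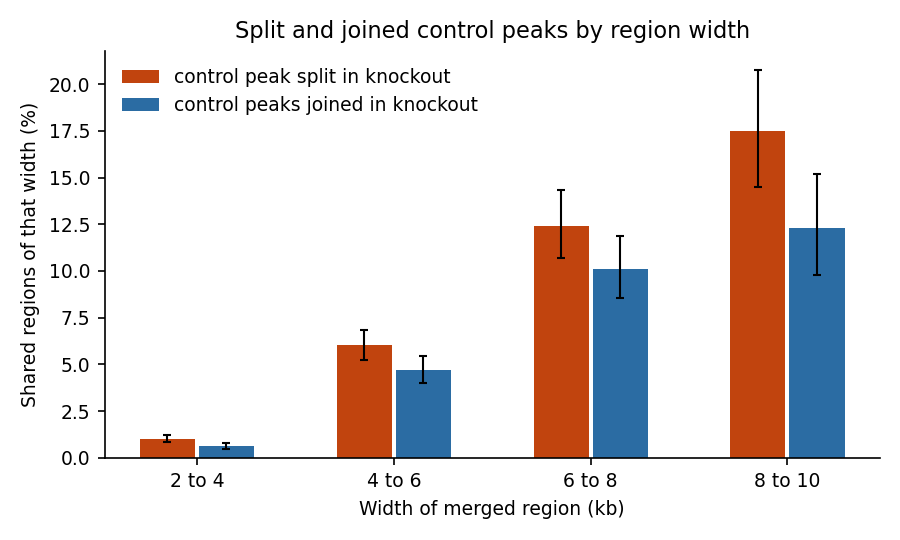
Percent of shared regions in each width class (kb) that were split control peaks or joined control peaks, with exact binomial 95% intervals as bars. Both shares climb with width, which the rules favour, to 17.5% split and 12.3% joined between 8 and 10 kb.

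The ratio of split to joined regions changed with the smallest gap counted in each list. Neighbouring peaks lay at least 904 bp apart in the knockout list and at least 997 bp apart in the control list. The knockout list held 333 gaps shorter than 997 bp and the control list held none. In 88 of the 589 split regions (14.9%, 12.2 to 18.1) the largest gap was below 997 bp, a length at which the control list shows no gap anywhere. When knockout peaks less than 997 bp apart were joined before counting, an alternative chosen after seeing the data, 499 split and 484 joined regions were left, a ratio of 1.03 in place of 1.34. Joining peaks within 1000 bp in both lists gave 503 and 488. With the same number of peaks taken from each list by fold enrichment, the ratio was 1.12. Thresholds on the peaks moved it the other way, to 1.55 with a −log10 q of at least 5 and to 1.59 with a fold of at least 4. The lists also differed in median pileup (32.0 in knockout, 22.7 in control) and median −log10 q (15.0 in knockout, 10.6 in control), and the part of depth in the counts was not tested.

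**Figure D2:**
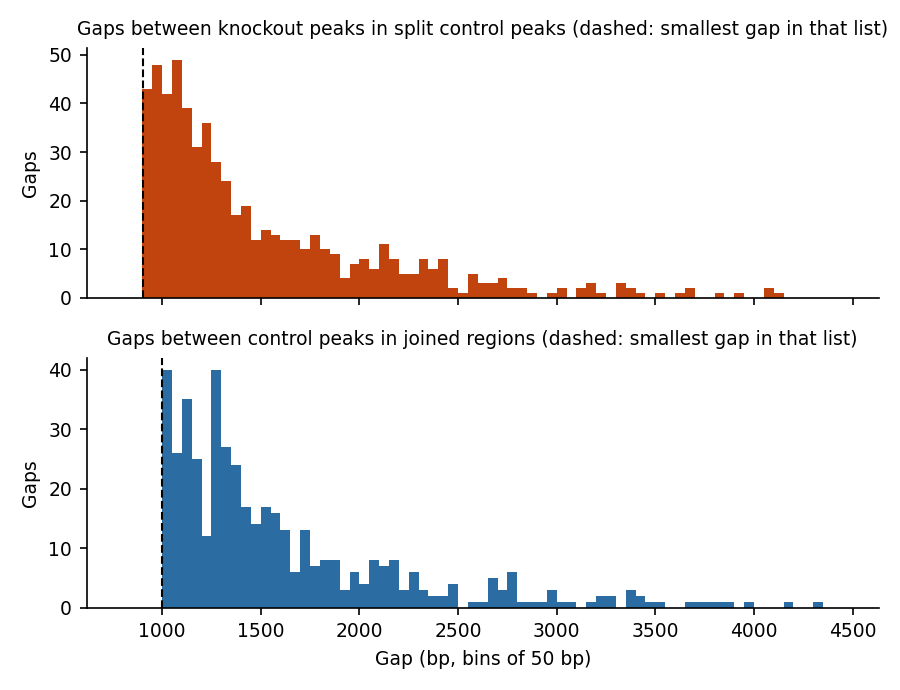
Number of gaps by length (bp, bins of 50 bp), between knockout peaks within split control peaks (above) and between control peaks within joined regions (below). Gaps pile up just above the smallest gap of each list, 904 bp in knockout and 997 bp in control (dashed).

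Most members were divided once, by a short gap near the middle. The knockout list had 2 peaks in 575 members, 3 in 13 and 4 in 1. The merged regions were 2040 to 9998 bp wide, with a median of 5698 bp. The largest gap of a member had a median of 1276 bp and ranged from 904 to 4110 bp. It was at most 1500 bp in 378 members (64.2%) and over 3000 bp in 23 (3.90%). The centre of the gaps fell in the central 50% of the control peak in 520 members (88.3%), and the median position was 49.5% along it. A gap must have a knockout peak on both sides, and the centres of several gaps were averaged, so a central position is favoured by the rule. In joined regions the median largest gap, here between control peaks, was 1391 bp. Joined regions were alike in form: 431 of 439 held 2 control peaks. Their gap centre fell in the central 50% of the knockout peak in 91.3%.

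The knockout peaks left a large part of the control peak uncovered. Over all members they summed to 2.26 Mb, against 3.39 Mb of control peaks, and gaps between them summed to 0.908 Mb. A median of 63.8% of the control peak was covered by knockout peaks, with a range of 10.8% to 89.6%. In 121 members (20.5%) less than 50% was covered. Regions over 2 kb with 1 peak in each list had a median of 94.7% covered. In 581 of the 589 members the knockout peaks together were shorter than the control peak, which the rule favours. The mirror value for joined regions was a median of 59.5% of the knockout peak covered by control peaks.

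The knockout pieces of a member were ordered by fold, so a strongest and a weakest piece exist by definition. The strongest piece of a member had a median fold enrichment of 10.01 (percentile 73.8 of the knockout list), and the weakest a median of 3.33 (percentile 23.9). Fold enrichment is the authors' value over the background of a list's own input, and percentiles are ranks within that list. The 2 lists were called separately, so a higher fold in 1 list does not show more acetylation there. By rank within its own list, the strongest piece stood above the control peak in 340 members (57.7%). In joined regions the strongest control piece stood above the knockout peak in 198 of 439 (45.1%). Both values set the strongest of several pieces against 1 peak. The strongest piece was also the widest in 465 members (78.9%), and in 79.3% of joined regions. In 147 members (24.96%) the weakest piece ranked in the lowest 10% of knockout peaks, and in 127 (21.6%) even the weakest piece ranked in the upper 50%. In joined regions the shares for the weakest control piece were near these, at 21.4% and 16.2%. The control peak had a median fold of 7.98 (percentile 68.9), and 483 control peaks (82.0%) ranked in the upper 50% of their list. Among shared regions over 2 kb with 1 control peak, the share that was split was 3.87%, 4.62%, 3.92% and 2.296% from the weakest to the strongest quartile by control fold. The strongest quartile, with a median width of 3697 bp, was thus split least although it was the widest.

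The widest members stood at the 10 kb limit. They were at PTPN1, the tyrosine phosphatase PTP1B (9998 bp, gap 1124 bp), at ATL3, an atlastin of the endoplasmic reticulum (9963 bp, gap 1304 bp), and at SKIC8 (9951 bp, gap 2574 bp). Beyond the limit, 277 wider regions had the same pattern. The narrowest were at ADAM17, a shedding protease (10009 bp, gap 1067 bp), on chromosome 5 away from gene ends (10046 bp, gap 962 bp), and at CAPN2, a calpain protease (10055 bp, gap 948 bp).

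The place of split control peaks relative to genes varied with their width. Of the 589, 287 (48.7%, 44.6 to 52.8) lay within 1 kb of either end of a protein-coding gene, 185 (31.4%) touched only a gene body and 117 (19.9%, 16.7 to 23.3) lay between genes. For place, only protein-coding genes were counted, so a region between genes can lie in a non-coding gene. Joined regions lay at a gene end in 26.2% (22.1 to 30.6) and between genes in 34.4%. Regions with 1 peak in each list gave 33.9% and 31.2%, but they were mostly narrower. From 2 to 4 kb, the gene-end share was 31.0% for split and 41.8% for undivided regions (those with 1 peak in each list), and the share between genes was 37.2% for split and 25.6% for undivided regions. From 4 to 6 kb the shares at a gene end were 43.8% of split and 46.6% of undivided regions. The order was the other way above 6 kb, with 62.0% of split and 47.7% of undivided regions from 6 to 8 kb, and 57.1% of split and 48.4% of undivided regions from 8 to 10 kb. Gene starts, known for 15812 of 19974 genes and for none on chromosome 8, lay within 1 kb of 237 members (40.2%, 36.3 to 44.3), against 15.3% (12.0 to 19.0) of joined regions.

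The share at gene starts moved with width, so the classes are set side by side within width classes. From 2 to 4 kb, 18.6% of split (11.9 to 26.99), 5.88% of joined (1.63 to 14.4) and 33.8% of the regions with 1 peak in each list (32.9 to 34.7) lay at a start. Narrow split regions were thus at starts less often than undivided ones in these lists. From 4 to 6 kb the values were 36.1% (29.5 to 43.0), 15.95% (10.7 to 22.5) and 38.0% (36.3 to 39.7). From 6 to 8 kb the values were 52.8% (44.8 to 60.6), 16.5% (10.7 to 24.0) and 38.4% (35.4 to 41.5). From 8 to 10 kb they were 52.4% (42.4 to 62.2), 20.3% (11.8 to 31.2) and 38.8% (34.1 to 43.7), so wide split regions were at starts more often than both other classes in these lists. In all 4 classes split regions had a higher share at starts than joined ones, and no test of these differences was made because regions are not replicates. Without the members that held a gap below 997 bp the share at starts was 40.5% (202 of 499).

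**Figure D3:**
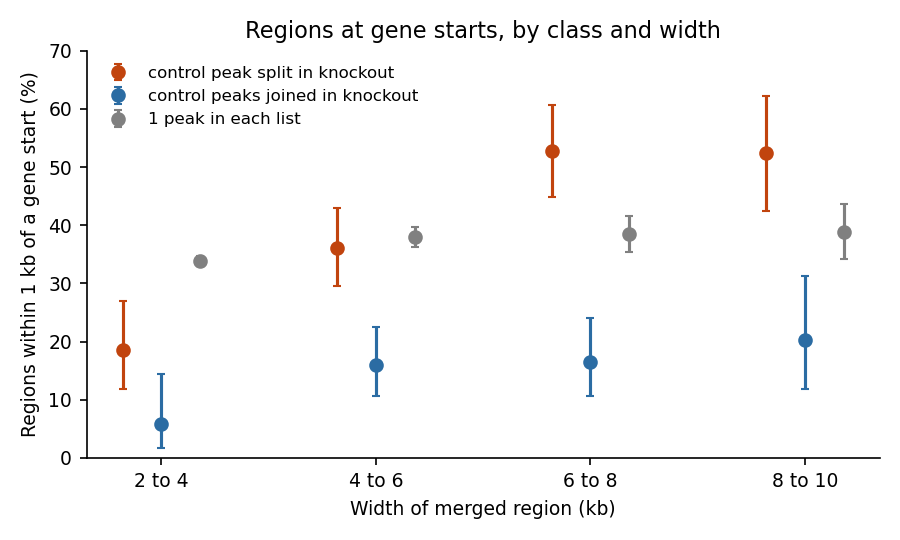
Percent of regions within 1 kb of a gene start, by width of the merged region (kb), for split control peaks, joined control peaks and regions with 1 peak in each list, with exact binomial 95% intervals. Split regions reach 52.8% and 52.4% above 6 kb, where joined regions stay at 16.5% and 20.3%.

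Within the members, the knockout list kept the start of the gene and the gap lay elsewhere. Of 278 gene starts inside a split control peak, 229 (82.4%, 77.4 to 86.7) lay under the strongest knockout piece, 41 (14.7%) under another piece, 5 beyond the outer pieces and 3 (1.08%, 0.223 to 3.12) in a gap. The gaps took up 26.02% of the summed region width. The far ends of genes behaved otherwise: of 96 gene 3′ ends inside a split control peak, 42 (43.8%, 33.6 to 54.3) lay in a gap, 19 under the strongest piece, 19 under another and 16 beyond the outer pieces. Joined regions had 59 of 77 starts (76.6%, 65.6 to 85.5) under the strongest control piece, so this trait was not particular to split regions. They had 4 of 77 starts (5.19%, 1.43 to 12.8) and 8 of 32 3′ ends (95% interval 11.5 to 43.4%) in a gap of the control list.

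The gap lay mostly downstream of the start, the side on which the control peak was mostly longer. Among 186 members with 1 start and 1 gap, the gap centre was downstream of the start in 145 (78.0%, 71.3 to 83.7), at a median of 2163.5 bp downstream over all 186. The control peak reached a median of 4615 bp downstream and 1065 bp upstream of the start in 192 members with 1 start, and was the longer downstream in 79.7% of them. In undivided regions over 4 kb the control peak was also the longer downstream in 77.3% of 1391, with medians of 3330 bp downstream and 1484 bp upstream. The share with the gap downstream was thus close to the share whose control peak was longer downstream. In joined regions the gap of the control list was downstream in 29 of 52 (55.8%, 41.3 to 69.5).

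At single distances, 194 members with 1 start in the region showed where both lists parted. At the start, a knockout peak was present in 95.9% and a control peak in 99.0%. At 1 kb downstream the values were 79.9% in knockout and 92.3% in control, and at 2 kb they were 41.8% in knockout and 86.6% in control. At 1 kb upstream they were 40.7% in knockout and 52.6% in control. At 3 kb downstream they were 35.1% in knockout and 78.4% in control. The 53 joined regions with 1 start showed the reverse, with 66.0% in knockout and 28.3% in control at 2 kb downstream and 100% in knockout and 92.5% in control at the start. Both rules select such a difference away from the start, so these values are a description only.

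**Figure D4:**
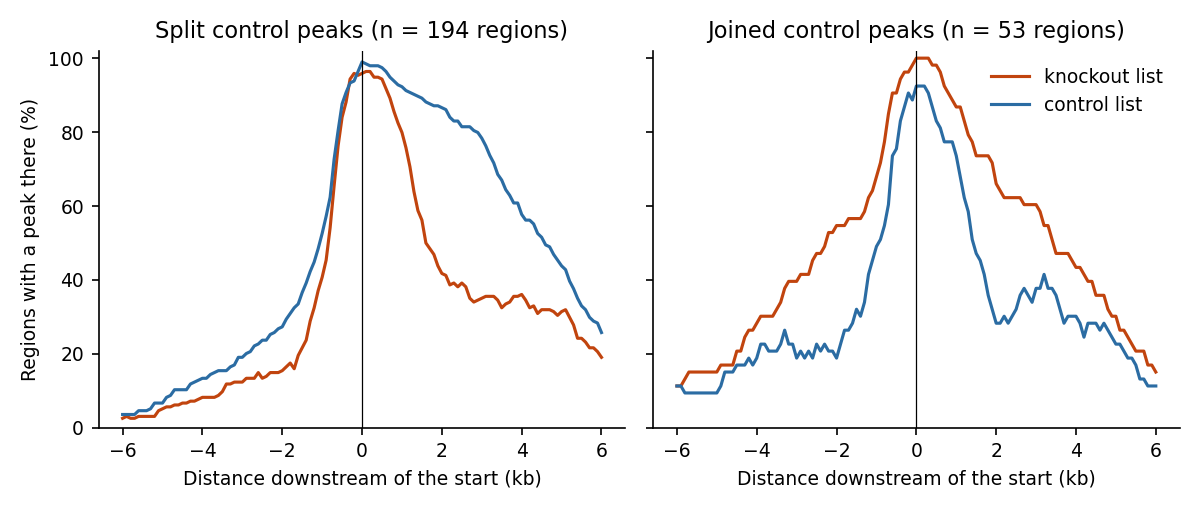
Percent of regions with a knockout or a control peak at each distance from the gene start (kb, positive is downstream), for 194 split and 53 joined regions with 1 start. At 2 kb downstream the knockout list is at 41.8% and the control list at 86.6% in split regions, and at 66.0% and 28.3% in joined regions.

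Among members at gene ends, those with the highest control fold kept a strong knockout peak. Folds here and below belong to separately called lists and are not compared between genotypes. At NUAK1, an AMPK-related kinase (chromosome 12, 106135850 to 106140883), the knockout list had peaks of 3035 bp (fold 38.8) over the start and 1076 bp (fold 4.42) downstream, separated by 906 bp, and the control list had 1 peak of 4981 bp (fold 23.01). At RAI1, a nuclear regulator of transcription (chromosome 17, 17681051 to 17686696), the knockout peaks were 2848 bp (fold 32.7) over the start and 1040 bp (fold 5.51), 1707 bp apart, against 5394 bp (fold 19.0) in control. At VAPA, a tether protein of the endoplasmic reticulum (chromosome 18, 9912917 to 9918557), they were 3469 bp (fold 26.5) and 859 bp (fold 2.37), 1065 bp apart, against 5493 bp (fold 18.6) in control. In these 3 genes the start was under the stronger piece and the weaker piece lay downstream, at percentiles 40.8, 51.3 and 2.50 of the knockout list.

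MYO1C, an unconventional myosin (chromosome 17, 1482830 to 1492357), had the highest control fold at a gene end, with its start just outside the region. Its knockout peaks were 4960 bp (fold 38.1) and 1912 bp (fold 22.5) across a gap of 992 bp, against 1 control peak of 9528 bp (fold 23.1). TBX2, a T-box transcriptional repressor, had knockout peaks of 694 bp (fold 10.7) and 2594 bp (fold 29.1), against 4287 bp (fold 21.1) in control. That member was at an end of TBX2, with no start of the promoter table within 1 kb. KLHL29, a kelch-like protein, had 5059 bp (fold 14.1) and 3541 bp (fold 16.3) in knockout, against 9917 bp (fold 19.8) in control. At these 3 genes both knockout pieces were strong, with percentiles from 76.2 to 99.9. GPX4, which detoxifies lipid peroxides, had 6922 bp (fold 20.5) over its start and a weak 1433 bp (fold 2.64) piece in knockout, against 8756 bp (fold 18.3) in control. LARP6, an RNA-binding protein known to bind collagen transcripts, and LRRC49 share a region with starts on both strands, under 1 knockout peak of 2238 bp (fold 24.4) with a second of 1334 bp (fold 3.70) and against 5740 bp (fold 19.6) in control.

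**Figure D5:**
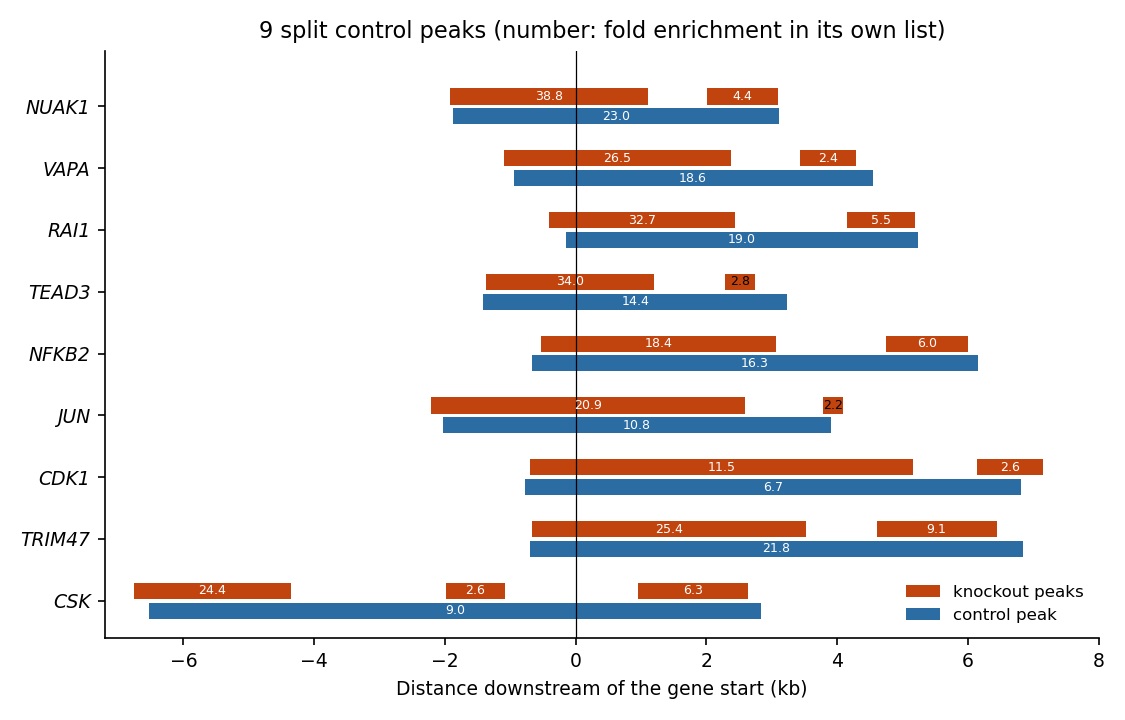
Knockout peaks (upper bar) and the control peak (lower bar) of 9 members, by distance from the gene start (kb, positive is downstream), with each peak's fold enrichment in its own list. In 8 of the 9 the strongest knockout piece lies over the start, and at CSK the start of the promoter table lies in a gap. The 9 were picked from the named members by no stated rule, so this count is not a result. Over all members, 41 of 278 starts lay under another piece.

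The strongest members with a gap at a gene 3′ end follow. At TRIM47, a RING-type ubiquitin ligase whose promoter is printed above, the knockout peaks were 4186 bp (fold 25.4) over the start and 1835 bp (fold 9.13) beyond the 3′ end, 1085 bp apart, against 7538 bp (fold 21.8) in control. At MEPCE, the capping enzyme of the 7SK RNA, a knockout peak of 4495 bp (fold 29.1) covered the starts of MEPCE and ZCWPW1 and another of 2384 bp (fold 37.5) covered that of PPP1R35. The gap of 2301 bp held the MEPCE 3′ end, and the control list had 1 peak of 9288 bp (fold 18.4) across all 3 starts. PSENEN, a gamma-secretase subunit, had 1981 bp (percentile 89.4 of the knockout list) over its start and 1670 bp (fold 8.20) over that of LIN37 in knockout, against 4524 bp (fold 15.6) in control. At each of these loci the knockout list thus had peaks over the starts and a gap over a 3′ end, where the control list had 1 peak across both.

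At TREX1, an exonuclease that degrades cytosolic DNA, the start was under a knockout peak of 2163 bp (fold 27.6), and the 3′ ends of TREX1, ATRIP and SHISA5 lay in a gap of 3142 bp before a peak of 3406 bp (fold 15.3). The control list had 1 peak of 8903 bp (fold 13.8) there. At THAP11, a zinc finger transcription factor, the start was under 1853 bp (fold 23.3) and the starts of NUTF2 and CENPT under 2881 bp (fold 24.5), 2436 bp apart, against 7154 bp (fold 14.2) in control. The ribosomal protein gene RPL10A had 2765 bp (fold 14.5) over its start and 465 bp (fold 2.70) in knockout, against 5235 bp (fold 12.6) in control. In the member of TGFBR3L and SNAPC2, a subunit of the small nuclear RNA activating complex, the TGFBR3L 3′ end lay in a gap of 941 bp. The knockout peaks there were 2654 bp (fold 23.7) and 2129 bp (fold 12.3), the second over the SNAPC2 start, against 5974 bp (fold 13.8) in control. TET3, a 5-methylcytosine dioxygenase, differed: the lower end of the gene in the gene table (73983631) lay in the gap, while the start in the promoter table (73984910) lay under a knockout peak of 3180 bp (fold 37.9). Of 56 gene ends in gaps, 42 were 3′ ends, 4 were starts by the gene table and 10 had no strand in the promoter table.

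CSK, a kinase that restrains the Src family, had the largest summed gap and an ambiguous start. The knockout list had 3 peaks, of 2400 bp (fold 24.4), 914 bp (fold 2.58) and 1682 bp (fold 6.31), with 4403 bp of gaps, against 1 control peak of 9364 bp (fold 9.004). The start in the promoter table (74788544) lay 957 bp from the nearest gap edge, whereas the lower end of the gene in the gene table (74782080) lay under the strongest knockout piece. At SPATA4, a gene known for expression in testis, the start lay 71 bp from the gap edge beside a knockout peak of 626 bp (fold 10.4), with a second of 237 bp (fold 2.32) and against 2693 bp (fold 5.03) in control. At C10orf95 the start lay 221 bp from a gap edge, between knockout peaks of 2034 bp (fold 9.86) and 4188 bp (fold 7.03), against 7294 bp (fold 6.71) in control. The 3 starts in gaps thus lay at quite different distances from the nearest knockout peak.

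Several of the largest summed gaps lay inside genes, away from their ends. In TRAK1, an adaptor of mitochondrial transport (chromosome 3, 42117034 to 42124196), the knockout list had 3 peaks of 645, 471 and 720 bp (folds 3.24, 3.22 and 2.80), which covered 25.6% of a control peak of 7163 bp (fold 4.66). In PKP4, a plakophilin of cell junctions (chromosome 2, 158500961 to 158510855), the knockout list had 4 peaks, the most of any member, with folds of 2.34 to 4.15, against 1 control peak of 9360 bp (fold 4.55). In ADGRG1, an adhesion G protein-coupled receptor, peaks of 1378 bp (fold 7.54) and 1789 bp (fold 5.20) stood 3848 bp apart in knockout, against 7285 bp (fold 5.35) in control. ADAMTS12, a secreted metalloprotease gene, had peaks of 2615 bp (fold 9.02) and 1746 bp (fold 3.28) in knockout, 3931 bp apart, against 7750 bp (fold 5.41) in control. ERI1, an exonuclease gene, had the largest single gap, 4110 bp, between knockout peaks of 1897 bp (fold 7.52) and 2511 bp (fold 10.3), against 8755 bp (fold 12.3) in control.

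Other members with large summed gaps lay at gene ends or between genes. At KANK2, a regulator of the actin cytoskeleton, knockout peaks of 1788 bp (fold 9.92) over the start and 1521 bp (fold 4.16) stood 4085 bp apart, against 8383 bp (fold 4.94) in control. At SLC25A1, the mitochondrial citrate carrier, 3 knockout peaks of 1705, 818 and 2761 bp (folds 16.6, 3.71 and 17.6) faced 1 control peak of 8623 bp (fold 9.90). At DNAJC7 and NKIRAS2, whose starts lie on opposite strands, a knockout peak of 2310 bp (fold 25.6) covered both starts and another of 3547 bp (fold 10.01) lay 3691 bp away, against 9586 bp (fold 11.3) in control. A member on chromosome 8 (128101504 to 128110936) lay 359 kb from MYC, the nearest protein-coding gene, with non-coding genes not counted. Its knockout peaks of 874 bp (fold 2.16) and 2695 bp (fold 8.94) covered 37.8% of a control peak of 9433 bp (fold 7.44). PPTC7, a mitochondrial phosphatase, also had 3 knockout peaks, of 2834, 1916 and 548 bp (folds 8.41, 14.4 and 3.10), against 9017 bp (fold 9.90) in control.

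Between genes, the members with the highest control fold had 1 strong and 1 weaker knockout piece. The first lay 3.87 kb from IRF1, an interferon regulatory factor (chromosome 5, 132494644 to 132501788), with knockout peaks of 4309 bp (fold 25.6) and 735 bp (fold 3.15), against 7099 bp (fold 21.0) in control. The second, 33.2 kb from RTN4R, the Nogo receptor gene, had 1045 bp (fold 4.40) and 2366 bp (fold 17.9) in knockout, against 5244 bp (fold 20.4) in control. The third, 31.1 kb from PIM1, a proto-oncogene kinase, had 1021 bp (fold 2.95) and 5614 bp (fold 12.4) in knockout, against 8925 bp (fold 18.5) in control. Another, 37.5 kb from SLCO4A1, an organic anion transporter gene, had 729 bp (fold 3.74) and 3333 bp (fold 13.8) in knockout, against 5946 bp (fold 17.6) in control.

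In the 11 gene lists, the share of genes with a split control peak at an end was near that of all genes. Over all genes, 405 of the 11892 with a shared region up to 10 kb at an end had a split one there (3.41%), and 154 had a joined one (1.29%). Of 132 such genes in 11 lists, 6 had a split region (4.55%) and 1 a joined region, SNAI1, a repressor of E-cadherin. The 6 were JUN among 11 AP-1 and stress factors, TEAD3 among 10 YAP and TEAD genes, NFKB2 among 9 NF-kappaB and inflammatory genes, CDK1 and CDK2 among 18 replication and mitosis genes, and RPS18 among 12 housekeeping genes. None of the 13 TGF-beta and SMAD genes, 8 EMT and mesenchymal genes, 16 interferon response genes, 17 SWI/SNF subunit genes, 13 cytoskeleton and adhesion genes and 5 genes of other cell types had one. With 132 genes, a share of 4.55% is near the 3.41% of all genes. Lists of 5 to 17 genes are too small for a lack of split regions to be read as a result.

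Of the 6 listed genes with a split peak, those with a start in the promoter table within the region had it under a knockout peak. No start of CDK2 was matched there. JUN, the AP-1 subunit (chromosome 1, 58779961 to 58786261), had 4800 bp (fold 20.9) over its start and 312 bp (fold 2.24) beyond its 3′ end in knockout, against 5941 bp (fold 10.8) in control. TEAD3, a DNA-binding partner of YAP, had 2559 bp (fold 34.0) over its start and 451 bp (fold 2.77) downstream, against 4651 bp (fold 14.4) in control. NFKB2, the p100 and p52 subunit, had 3598 bp (fold 18.4) and 1252 bp (fold 5.99) in knockout, against 6811 bp (fold 16.3) in control. CDK1, the mitotic kinase, had 5858 bp (fold 11.5) and 1019 bp (fold 2.60) in knockout, against 7595 bp (fold 6.73) in control. CDK2, a kinase of S phase entry, lay in a member with PMEL and RAB5B, with 1916 bp (fold 19.0) and 4688 bp (fold 11.4) in knockout against 9097 bp (fold 9.93) in control. RPS18, a ribosomal protein gene, shared 4640 bp (fold 12.2) with the start of VPS52, next to 1391 bp (fold 12.3), against 9486 bp (fold 7.67) in control.

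A few microRNA genes lay in the members, and 3 hairpins fell wholly within a knockout gap. Of 12 hairpins that touched a member, 7 lay under a knockout peak and 2 elsewhere. Gaps took up 26.02% of the summed region width, so 3 of 12 in gaps is near the share of the width. The mature microRNAs of the 3 in gaps are shown because the gaps are the part missing from the knockout list, with the seed (bases 2 to 8) in capitals, from RefSeq on GRCh38.p14. MIR7111 lies in the RPL10A member on chromosome 6, MIR6748 in a member on chromosome 11 and MIR4513 in the CSK member on chromosome 15.
hsa-miR-7111-5p: uGGGGGAGgaaggacaggccau
hsa-miR-7111-3p: aUCCUCUCuucccuccucccag
hsa-miR-6748-5p: uGUGGGUGggaaggacuggauu
hsa-miR-6748-3p: uCCUGUCCcugucuccuacag
hsa-miR-4513: aGACUGACggcuggaggcccau
No seed was shared between these 5 mature microRNAs. A peak over a hairpin says nothing of whether the microRNA is made.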

How the data were processed

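H3K27ac ChIP-seq was used as 2 deposited peak lists, 1 per genotype (42552 knockout and 39797 control peaks on chromosomes 1 to 22 and X). Per the submitters' processing notes, the build was hg38, Bowtie2 2.3.5.1 was the aligner and MACS2 2.2.6 the peak caller. No source used here gives the options or read depths, so the depth is unknown. Each deposited peak carries a width, a pileup (signal), a −log10 q-value and a fold enrichment (ratio), per the file headers. The p-value column was not used. The smallest −log10 q was 1.00 in knockout and 1.01 in control.

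From these lists, merged regions, classes, gaps and shares were computed in Python 3.11.15 (numpy 2.4.6, pandas 2.3.3, scipy 1.17.1; figures with matplotlib 3.10.9). The merging was tested on simulated data, and bedtools 2.31.1 gave the same 48662, 589 and 439 regions. Gene ends came from RefSeq on GRCh38.p14 (the assembly of hg38), and starts and strands from its promoter table, matched for 15812 of 19974 genes. The planned use of starts in place of gene ends was therefore made beside gene ends, not instead.

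Named regions followed a rule: the 10 largest summed gaps, the 5 with most knockout peaks, the highest control folds (10 at gene ends, 5 between genes), the 8 strongest with a gene end in a gap, members at listed genes, and the widest. One region under this rule is not reported here. SPATA4 and C10orf95 were chosen after their values were seen. Alternatives were thresholds on q and fold, equal peak numbers, the overlap, the linking gap, the width limit and the gene window. Members and lists were chosen with earlier results of these data known. No p-values were computed, since each genotype had 1 list.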

Additional observations from a re-analysis of the deposited data

Results flagged for a closer look

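Peaks outside chromosomes 1 to 22 and X were used in no comparison. The knockout list held 8 such peaks and the control list 6, on 4 sequences in each list. They are named here because they lie in data outside the main measurement; the rule leaves them out.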

How the results depend on the processing

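No paired analysis was possible because each genotype had 1 peak list, and for the same reason no replicate could be left out. Requiring an overlap of 200 bp, joining peaks within 500 bp (no gap is that short) or a gene window of 2 kb changed little, with 569, 589 and, for the window, 50.3% of members at a gene end. With a −log10 q of at least 5 there were 288 split regions, 1.26% of shared regions and 1.55 per joined region, with a median largest gap of 1326.5 bp, 55.9% at a gene end and 67.5% of the control peak covered. With a fold of at least 4 there were 219, or 1.06% and 1.59 per joined region, with a gap of 1375 bp, 58.9% at a gene end, 11.9% with a gene end in a gap and 67.7% covered. Equal peak numbers gave 1.62% of shared regions and a ratio of 1.12. Joining peaks within 1000 bp gave 1.62%, a ratio of 1.03 and a gap of 1390 bp. A width limit of 5 kb gave 222 split regions, 0.794% of shared regions, a gap of 1143 bp, 36.0% at a gene end, 5.41% with a gene end in a gap and 58.5% covered, and a limit of 20 kb gave 2.51%, a gap of 1359 bp and 66.6% covered. Of the alternatives added after seeing the data, joining knockout peaks below the smallest control gap gave 1.60%, a ratio of 1.03 and a gap of 1378 bp. Joining peaks within 1500 bp gave 381 split regions, 1.27%, a ratio of 1.02, a gap of 2046 bp and 57.3% covered. Gene starts in place of gene ends gave 40.2% at a start and 0.509% with a start in a gap. The ratio stayed above 1 in every setting run. The width limits change the members by construction, and for the thresholds the cause was not tested. Peak lists carry no read depth, so signal just below the threshold in a gap cannot be told from none.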

Other observations

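Some genes held several split control peaks. Members touched 21 genes more than once, 2 of them by 3 members and 19 by 2. The 2 were DAGLA, which makes the endocannabinoid 2-arachidonoylglycerol (chromosome 11, 61679869 to 61729592), and MAML2, a Notch coactivator (chromosome 11, 96241343 to 96344007). Those with 2 included GATA3, a luminal transcription factor (chromosome 10, 8065180 to 8076956), SVIL, an actin-binding protein, EXT1, a heparan sulphate polymerase, and PRMT5, an arginine methyltransferase. No share over all genes touched by shared regions is given, and gene length was not taken into account. The genes are thus named as places only.

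The share of shared regions that was split varied between chromosomes, in counts too small to order them firmly. Over all chromosomes it was 1.89%. It was 3.05% on chromosome 22 (21 of 688, 1.90 to 4.63) and 2.89% on chromosome 17 (45 of 1558, 2.11 to 3.85), and 1.15% on chromosomes 3 (22 of 1921, 0.719 to 1.73) and 4 (17 of 1484, 0.669 to 1.83). Split regions outnumbered joined ones by 23 to 4 on chromosome 14, 29 to 8 on chromosome 16 and 45 to 18 on chromosome 17, whereas chromosome 3 had 22 split and 35 joined. Over all chromosomes there were 589 split and 439 joined regions. After knockout peaks less than 997 bp apart were joined, these were 499 and 484, which is not given by chromosome.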
